A study of Saccharomyces bayanus x Saccharomyces cerevisiae with 8 samples.

Results

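The genes described here are 10 genes of the glyoxylate cycle and gluconeogenesis, measured allele by allele in a hybrid yeast growing in glucose. They were chosen by name: CIT2 (YCR005C), ICL1 (YER065C), MLS1 (YNL117W), MDH2 (YOL126C) and MDH3 (YDL078C) of the glyoxylate cycle, PCK1 (YKR097W) and FBP1 (YLR377C) of gluconeogenesis, ACS1 (YAL054C) of acetyl-CoA supply, and the activator genes ADR1 (YDR216W) and CAT8 (YMR280C). All 10 were among the 4238 ortholog pairs in the table. Each pair is 1 gene with its Saccharomyces cerevisiae and its Saccharomyces bayanus allele. A pair was tested where each culture gave 10 reads or more when its alleles were added together, which held for all 10 genes and for 4197 of the 4238 pairs.

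The hybrid, strain OZY27, is a diploid with 1 genome from each species. Its S. cerevisiae parent is isogenic to the laboratory strain W303 and carries his3, leu2, lys2, trp1 and ura3, and its S. bayanus parent descends from CBS 4001 and carries ade2, his3 and lys2. There was 1 growth condition and no other treatment: 2 cultures of this single strain, called biological replicates 1 and 2, were kept in log phase at 25 °C in YPD, a rich medium with glucose. Each culture gave 1 RNA sequencing library, and both alleles were read in the same library. Replicate 1 was sequenced in lanes 1, 2 and 5 at UCB and lanes 6 and 8 at UCR, and replicate 2 in lanes 3 and 4 at UCB and lane 7 at UCR, so lanes are repeat runs and n = 2 cultures. Lanes held 2350222 to 3159446 counted reads, 14707025 in all for replicate 1 and 8223099 for replicate 2. The design asks how far the alleles of a gene differ when both genomes share a nucleus and a medium.

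The glyoxylate cycle lets yeast build sugars from compounds such as acetate, ethanol and fatty acids. It bypasses the steps of the citric acid cycle that release carbon dioxide. Isocitrate lyase and malate synthase are its own enzymes, and gluconeogenesis then turns its product into glucose phosphate through phosphoenolpyruvate carboxykinase and fructose-1,6-bisphosphatase. Glucose represses most of these genes. When it runs out, the kinase Snf1 relieves the repression, the activators Cat8 and Adr1 act, and the genes are among the most strongly induced in yeast.

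The 10 genes were weakly expressed in glucose, with 1 exception. A level is given as reads per kilobase of mappable length per 1000000 reads of that genome, here abbreviated RPKM, and the level of a gene is the mean of its alleles. Of the 10 genes, 9 were among the 1049 tested genes with the lowest levels. The median level was 12.2 RPKM over the 10 genes and 91.9 RPKM over all tested genes. MDH3 was the exception, at 326 ± 50.8 RPKM (SD, n = 2), above 80.6% of the tested genes. MDH3 encodes the peroxisomal malate dehydrogenase, which reoxidises NADH during fatty acid breakdown.

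CIT2 followed at 29.2 ± 0.605 RPKM, then ICL1 at 26.1 ± 8.28, ACS1 at 18.7 ± 1.27 and MDH2 at 15.7 ± 1.29 (SD, n = 2). The lower 5 were FBP1 at 8.61 ± 4.30, ADR1 at 6.16 ± 2.37, MLS1 at 5.70 ± 4.45, CAT8 at 4.31 ± 0.320 and PCK1 at 3.79 ± 3.92 RPKM. In this order the values of the cultures overlapped between CIT2 and ICL1, and between every neighbouring pair from FBP1 down to PCK1. They stood apart between MDH3 and CIT2, ICL1 and ACS1, ACS1 and MDH2, and MDH2 and FBP1. Counts per 1000000 reads, of both genomes unless 1 is named, are abbreviated CPM. The 10 genes drew 466 CPM in replicate 1 and 511 CPM in replicate 2, of which MDH3 made up 58.1% and 65.9%.

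**Figure D1:**
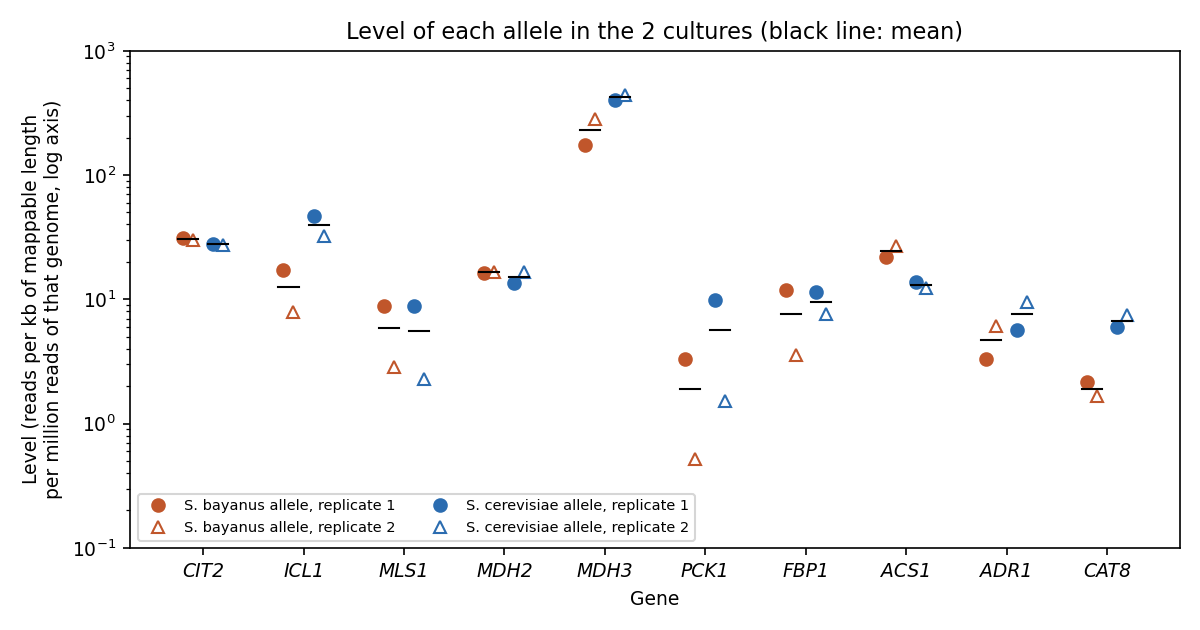
Level of each allele of the 10 genes (RPKM, log axis) in biological replicate 1 (filled circles) and 2 (open triangles), with the mean as a black line. MDH3 sits far above the others. On this axis PCK1 shows the widest gap between the cultures in both alleles, followed by MLS1 for S. cerevisiae and FBP1 for S. bayanus.

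Alleles differed in 6 of the 10 genes, 5 with a higher S. cerevisiae allele and 1 with a higher S. bayanus allele. The S. cerevisiae allele was higher in ICL1, MDH3, PCK1, ADR1 and CAT8, and the S. bayanus allele in ACS1. CIT2, MLS1, MDH2 and FBP1 did not pass the test. The test was edgeR's quasi-likelihood test with the culture as a block, and a gene differs when its p, adjusted by Benjamini-Hochberg over all 4197 genes, is under 0.05. By the same rule 53.5% of all tested genes differed, 26.9% toward S. cerevisiae and 26.6% toward S. bayanus, so 6 of 10 is near the background. The share was 53.1% among the 1049 genes with the lowest levels. Called ratios reached 2-fold in 3 of the 10 genes (ICL1, PCK1 and CAT8), against 13.2% of all genes. The median absolute log2 ratio was 0.78 over the 10 genes and 0.37 over all tested genes. Neither the 2-fold share nor this median was taken for the 1049 genes with the lowest levels. Whether the 10 genes differ from genes of like level in the size of their ratios was therefore not tested.

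The glyoxylate cycle opens with the condensation of acetyl-CoA and oxaloacetate to citrate, which the peroxisomal citrate synthase encoded by CIT2 carries out. CIT2 is also the classic target of retrograde signalling from mitochondria to the nucleus. Its S. bayanus allele had 271 reads in replicate 1 and 149 in replicate 2, and its S. cerevisiae allele 237 and 127. Levels of these alleles were 30.6 ± 0.976 and 27.8 ± 0.235 RPKM (SD, n = 2). Log2 ratios are given as S. bayanus minus S. cerevisiae with their standard error (SE), and that of CIT2, 0.14 (SE 0.13), did not pass (edgeR, adjusted p = 0.420).

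ICL1 encodes isocitrate lyase, which splits isocitrate into succinate and glyoxylate. In replicate 1 its S. cerevisiae allele had 85, 102, 89, 115 and 101 reads in lanes 1, 2, 5, 6 and 8, and its S. bayanus allele 34, 45, 29, 44 and 37. In replicate 2 the S. cerevisiae allele had 56, 65 and 65 reads in lanes 3, 4 and 7, and the S. bayanus allele 13, 22 and 15. The S. cerevisiae allele was higher in 8 of 8 lanes, and the reads of the alleles did not overlap within either culture. Because lanes repeat 1 library per culture, such agreement of lanes adds no evidence to the test, here or for the genes below. How many of all genes show it was not counted. The fitted ratio was 3.20-fold toward S. cerevisiae, or -1.68 on the log2 scale (SE 0.18, edgeR, adjusted p = 0.00200).

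Malate synthase, encoded by MLS1, joins glyoxylate with acetyl-CoA to give malate. Unlike ICL1, it had nearly equal alleles: 92 reads for S. bayanus against 86 for S. cerevisiae in replicate 1, and 17 against 12 in replicate 2. The S. bayanus share was 51.7% (44.1 to 59.2, exact binomial interval at 95%) and 58.6% (38.9 to 76.5). Both intervals held 50%, and at this depth a log2 ratio of 0.08 (SE 0.25) did not pass (edgeR, adjusted p = 0.850). Such intervals reflect counting error alone: molecular identifiers are not mentioned in the labels, and PCR copies of a molecule are not independent reads.

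The malate dehydrogenases are encoded by MDH2, the cytosolic enzyme of gluconeogenesis, and MDH3. For MDH2 the S. bayanus allele had 130 and 77 reads in the cultures, in order, and the S. cerevisiae allele 103 and 69, a log2 ratio of 0.15 (SE 0.18, edgeR, adjusted p = 0.511). For MDH3 the S. bayanus allele had 1247 and 1155 reads and the S. cerevisiae allele 2729 and 1613. Its S. cerevisiae allele, at 422 ± 25.7 RPKM, was higher than its S. bayanus allele, at 230 ± 75.9 (SD, n = 2), in 8 of 8 lanes. The fit gave 1.90-fold, or -0.92 in log2 (SE 0.15, edgeR, adjusted p = 0.00634).

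Both enzymes particular to gluconeogenesis had few reads. PCK1 encodes phosphoenolpyruvate carboxykinase, which turns oxaloacetate into phosphoenolpyruvate. In lanes 1, 2, 5, 6 and 8 of replicate 1 its S. cerevisiae allele had 12, 18, 17, 18 and 30 reads and its S. bayanus allele 7, 6, 7, 8 and 5. In lanes 3, 4 and 7 of replicate 2 the counts were 3, 3 and 2 against 1, 2 and 0. The S. cerevisiae allele was ahead in every lane, by 1 or 2 reads in those of replicate 2. The log2 ratio was -1.59 (SE 0.31, edgeR, adjusted p = 0.0107). FBP1 encodes fructose-1,6-bisphosphatase. In replicate 1 its alleles had 87 (S. bayanus) and 81 reads and in replicate 2 they had 15 and 29, a log2 ratio of -0.30 (SE 0.32, edgeR, adjusted p = 0.460). Its ratio was 0.02 in replicate 1 and -1.08 in replicate 2.

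ACS1 was the only one of the 10 genes that differed toward S. bayanus in this test. It encodes the acetyl-CoA synthetase that yeast uses when glucose is absent, while its paralog serves in glucose. The S. bayanus allele had 52, 63, 69, 57 and 60 reads in lanes 1, 2, 5, 6 and 8 of replicate 1, and the S. cerevisiae allele 27, 38, 47, 28 and 43. In lanes 3, 4 and 7 of replicate 2 the S. bayanus allele had 78, 77 and 58 reads and the S. cerevisiae allele 36, 26 and 27. The S. bayanus allele was higher in 8 of 8 lanes, without overlap between the alleles in either culture. The fit gave 1.80-fold, or 0.85 in log2 (SE 0.17, edgeR, adjusted p = 0.0109). The S. bayanus ortholog of ACS1 is 6.61 percentage points richer in GC, more than in 91.5% of tested genes. The ratio was 0.66 (edgeR, adjusted p = 0.00844) after removal of the trend of allele ratio with GC difference.

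Both activator genes had a higher S. cerevisiae allele. CAT8 encodes a zinc cluster protein that binds the carbon source responsive elements of gluconeogenic genes, ICL1, MLS1, PCK1, FBP1 and ACS1 among them. Its S. cerevisiae allele had 33, 32, 39, 28 and 44 reads in lanes 1, 2, 5, 6 and 8, and its S. bayanus allele 12, 18, 13, 15 and 8. In lanes 3, 4 and 7 the counts were 47, 47 and 24 against 8, 13 and 8. The alleles did not overlap in either culture, and the fitted ratio was 3.38-fold, or -1.76 in log2 (SE 0.23, edgeR, adjusted p = 0.00333). Its distance from the ICL1 ratio was smaller than either SE. The CAT8 ratio exceeded, in size, those of 95.4% of tested genes. ADR1 encodes a zinc finger activator of genes for ethanol, fatty acid and acetate use. Its S. cerevisiae allele drew 155 and 142 reads in the cultures, in order, against 96 and 102 for the S. bayanus one. The ADR1 ratio was 1.64-fold, or -0.72 in log2 (SE 0.16, edgeR, adjusted p = 0.0156), with the S. cerevisiae allele higher in 8 of 8 lanes.

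**Figure D2:**
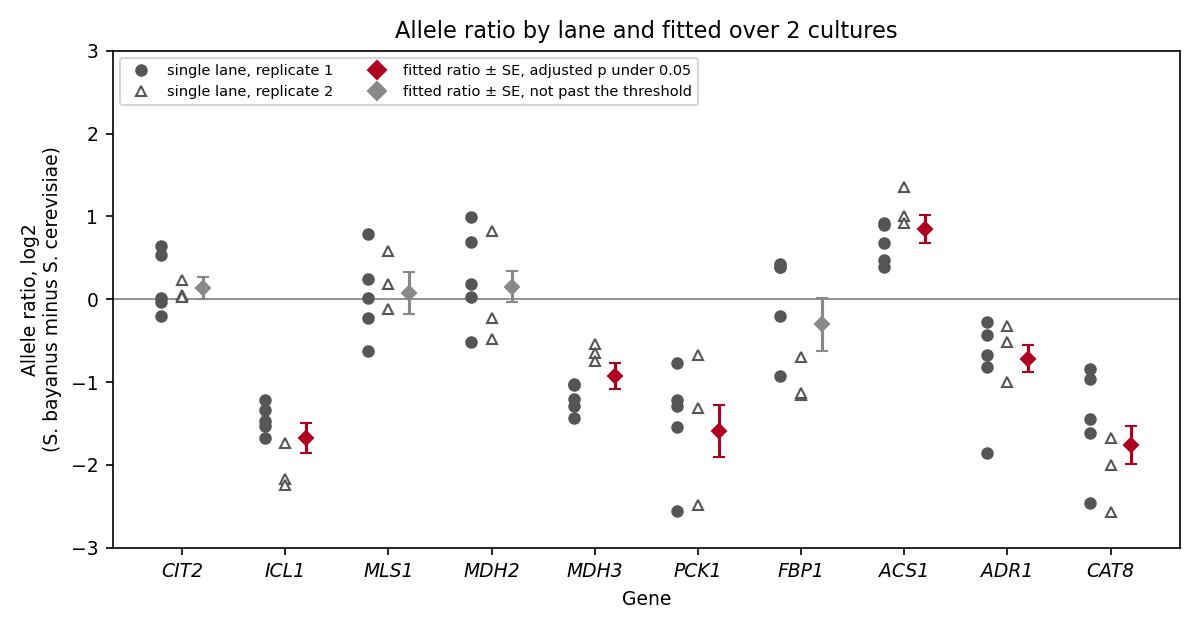
Allele ratio of the 10 genes on the log2 scale (S. bayanus minus S. cerevisiae) in single lanes of replicate 1 (filled circles) and 2 (open triangles), beside the ratio fitted over the 2 cultures with its standard error (diamonds, red where the adjusted p is under 0.05). All 8 lanes lie below 0 for ICL1, MDH3, PCK1, ADR1 and CAT8 and above 0 for ACS1. The share of all genes with lanes on 1 side of 0 was not counted, and lanes repeat 1 library per culture.

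The calls of PCK1 and ADR1 were the least secure. DESeq2 left PCK1 at an adjusted p of 0.121 and ADR1 at 0.107, and a fit without the culture block left PCK1 at 0.275, ADR1 at 0.289 and MDH3 at 0.0947 (edgeR). Over all alternatives with a test the adjusted p of PCK1 ran from 0.00759 to 0.275, that of ADR1 from 0.00571 to 0.289 and that of MDH3 from 7.45e-14 to 0.0947. By the authors' deposited table, ICL1, MDH3, ADR1 and CAT8 are called toward S. cerevisiae and ACS1 toward S. bayanus, 5 of the 10 genes. The authors' deposited table calls 48.9% of its genes, 19.8% toward S. cerevisiae and 29.1% toward S. bayanus. For PCK1 the authors' deposited table gives p = 0.000300 in replicate 1 and 0.0995 in replicate 2, and no call.

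No difference in these ratios between the sequencing sites was detected. With the UCB lanes alone the log2 ratios were -1.60 for ICL1, -0.88 for MDH3, 0.89 for ACS1, -0.70 for ADR1 and -1.73 for CAT8. With the UCR lanes alone they were -1.72, -1.01, 0.73, -0.72 and -1.73 for the same genes, and all 5 passed the test at each site. PCK1 had too few reads for a test at either site. The edgeR test of the difference between sites called 0 of the 10 genes and 0% of all genes, with 0 of the 10 and 236 of all genes at an unadjusted p under 0.05; no other tool was run for it.

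The total level of several of the 10 genes, with both alleles added, differed between the cultures, most of all that of PCK1. In CPM of both alleles, PCK1, MLS1, FBP1 and ICL1 were lower in every lane of replicate 2 than in any of replicate 1, and ADR1 and MDH3 were higher. The share of all genes with lanes apart in this way was not counted. Lanes repeat 1 library per culture, so nothing particular to the 10 genes is read from this separation. With 1 library per culture there is no test of this difference, and each fold is given with an exact 95% counting interval for the reads of these 2 libraries. Of the 10 genes, 3 (PCK1, MLS1 and FBP1) were at least 2-fold lower in replicate 2, against 0.548% of all tested genes and 1.43% of the 1049 genes with the lowest levels. None of the 10 was 2-fold higher, against 1.07% of all. Taken by allele, 4 of the 10 were at least 2-fold lower in S. bayanus reads (1.29% of all genes) and 2 in S. cerevisiae reads (1% of all genes).

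PCK1 had the lowest ratio of replicate 2 to replicate 1 of all 4197 genes. It gave 128 reads in replicate 1, or 8.70 CPM, and 11 in replicate 2, or 1.34 CPM, a total 6.51-fold lower (3.52 to 13.4). Single lanes ran from 6.54 to 11.9 CPM in replicate 1 and from 0.851 to 1.71 in replicate 2, so the cultures did not overlap. Both alleles shared the difference: the S. cerevisiae allele was 6.44-fold lower (3.14 to 15.3) and the S. bayanus allele, with 3 reads in replicate 2, 6.33-fold lower (1.98 to 32.2). The total was 4.98-fold lower with the UCB lanes and 12.1-fold lower with the UCR lanes. The UCR value rests on 2 reads in lane 7, the only lane of replicate 2 at that site.

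MLS1 ranked 4 from the lowest, with 178 reads in replicate 1 and 29 in replicate 2, or 12.1 and 3.53 CPM. Its total was 3.43-fold lower (2.31 to 5.27), with lanes at 9.56 to 15.7 CPM in replicate 1 and 2.71 to 4.79 in replicate 2. The S. cerevisiae allele was 3.89-fold lower (2.11 to 7.81) and the S. bayanus allele 3.11-fold lower (1.84 to 5.57). Here too no lane of one culture reached the range of the other.

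FBP1 ranked 20, with 168 and 44 reads, a total 2.13-fold lower (1.52 to 3.05). Its S. bayanus allele was 3.34-fold lower (1.92 to 6.21), and its S. cerevisiae allele 1.51-fold lower with an interval that reached 1 (0.980 to 2.40). The FBP1 total was 1.98-fold lower when the totals were scaled by TMM factors, 1.98-fold without lane 6, 1.97-fold without lane 7 and 1.83-fold with the UCB lanes alone, each short of 2-fold. ICL1 ranked 153, with 681 and 236 reads, a total 1.61-fold lower (1.39 to 1.88), 2.17-fold (1.58 to 3.03) in the S. bayanus allele and 1.43-fold (1.21 to 1.71) in the S. cerevisiae allele. FBP1 and ICL1 lanes did not overlap in total between the cultures.

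The activator genes had other ratios. ADR1 had 251 reads in replicate 1 and 244 in replicate 2, or 17.1 and 29.7 CPM, a total 1.74-fold higher in replicate 2 (1.45 to 2.08). Its lanes ran from 14.7 to 18.2 CPM in replicate 1 and from 25.1 to 32.2 in replicate 2, and it ranked 85 from the highest. Both of its alleles were higher, 1.85-fold (1.38 to 2.47) in S. bayanus and 1.69-fold (1.34 to 2.14) in S. cerevisiae. CAT8, at 16.5 and 17.9 CPM, had a ratio of 1.09 (0.879 to 1.34). CIT2, MDH2 and ACS1 had ratios of 0.972 (0.836 to 1.13), 1.12 (0.905 to 1.38) and 1.12 (0.963 to 1.29), and their lanes, like those of CAT8, overlapped between the cultures. The direction of CIT2 and CAT8 differed by site: log2 changes were -0.34 and 0.23 with the UCB lanes and 0.53 and -0.24 with the UCR lanes.

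**Figure D3:**
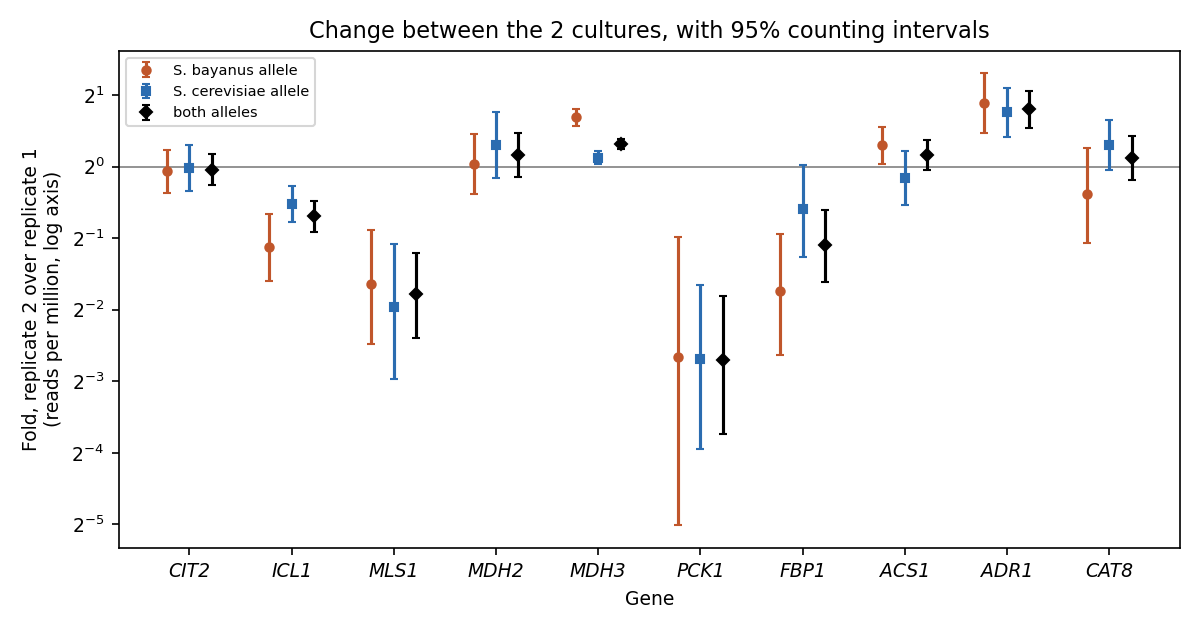
Fold of replicate 2 over replicate 1 in CPM for the S. bayanus allele, the S. cerevisiae allele and both together (log axis), with exact 95% counting intervals. For PCK1 and MLS1 both alleles lie well below 1, for ADR1 both lie above 1, and for MDH3 the S. bayanus allele lies at 1.61 and the S. cerevisiae allele at 1.09.

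Of 6 listed genes that follow the glucose supply, 4 were tested, and the totals of these 4 did not differ 2-fold between the cultures. Few genes did: of all tested genes, 0.548% were at least 2-fold lower in replicate 2 and 1.07% at least 2-fold higher. Nothing about the glucose state of the cultures is therefore read from these 4. Totals of the 4 in replicate 2 over replicate 1 ran from 0.953 (YFR015C) to 1.43 (YDR345C). The allele ratio shifted in 2 of the 4 (edgeR, allele by culture interaction over lanes). YFR053C shifted by 1.17 (adjusted p = 0.000929) and YIL162W by -1.08 (adjusted p = 3.16e-05), in a test that called 17.9% of all genes. The median gene of all those tested lay at -0.12 on the log2 scale with total reads as the scale, and at -0.01 with TMM factors. The state of a culture and the making of its library cannot be told apart here, nor can fewer cells that express a gene and less RNA in each cell.

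**Figure D4:**
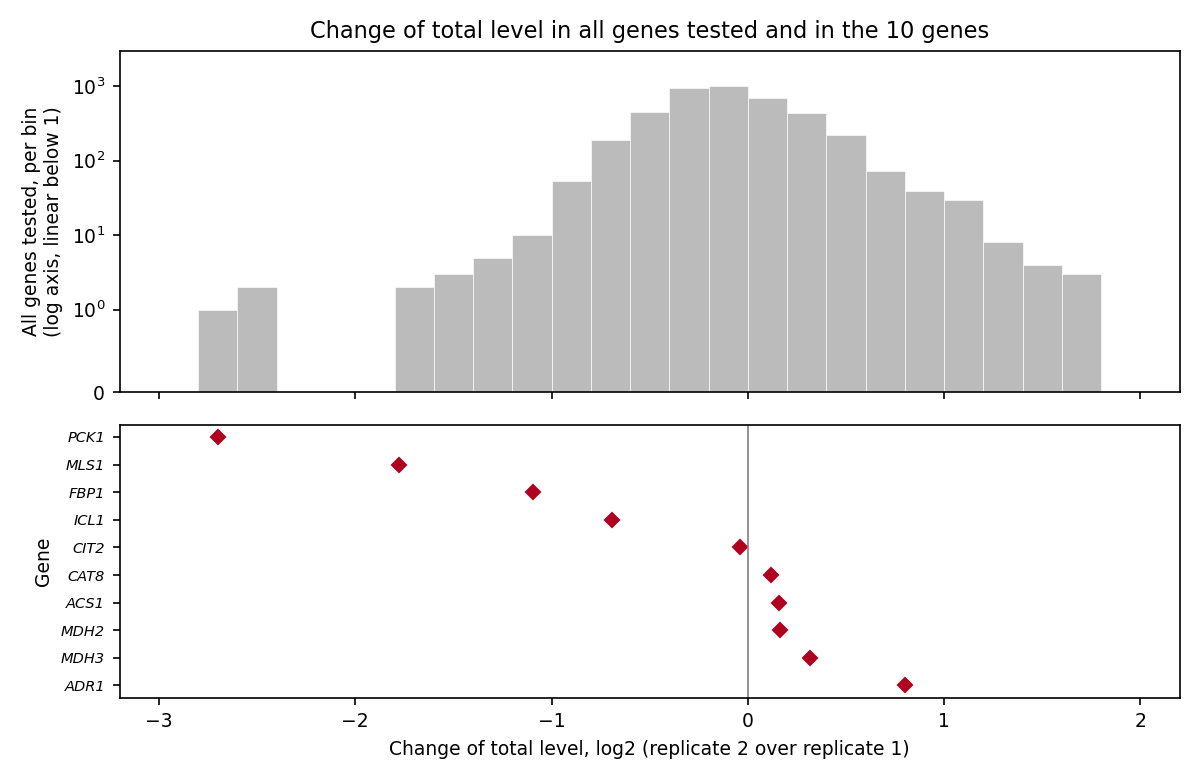
Change of the total level on the log2 scale (replicate 2 over replicate 1) in all tested genes (grey bars, genes per bin on a log axis) and in each of the 10 genes (red diamonds). PCK1 at -2.70 lies at the left end of the distribution, MLS1 at -1.78 and FBP1 at -1.09 in its left tail, and ADR1 at 0.80 in its right part.

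MDH3 was the only one of the 10 genes whose allele ratio shifted between the cultures by the test used. Its S. bayanus share was 31.4% (29.9 to 32.8, exact binomial interval) in replicate 1 and 41.7% (39.9 to 43.6) in replicate 2. The log2 ratio lay between -1.44 and -1.02 in the 5 lanes of replicate 1 and between -0.74 and -0.54 in the 3 lanes of replicate 2, with no overlap. The shift was 0.56 (SE 0.09, edgeR, allele by culture interaction over lanes, adjusted p = 3.20e-05). The test compares these 2 libraries against the spread between lanes, not the cultures, and it called 17.9% of all genes. The S. bayanus allele of MDH3 had 166 and 267 CPM of its genome, a ratio of 1.61 (1.49 to 1.75), and the S. cerevisiae allele 380 and 414, a ratio of 1.09 (1.02 to 1.16). With the UCB lanes alone the shift was 0.59 (edgeR, adjusted p = 0.00365).

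Shifts in ICL1 (-0.60, SE 0.24, adjusted p = 0.0835), FBP1 (-1.11, SE 0.51, adjusted p = 0.134) and ACS1 (0.46, SE 0.22, adjusted p = 0.157) had an unadjusted p under 0.05 and did not pass the adjusted threshold of edgeR. ICL1 had an S. bayanus share of 27.8% (24.4 to 31.3) in replicate 1 and 21.2% (16.2 to 27.0) in replicate 2. For ACS1 the shares were 62.2% (57.7 to 66.5) and 70.5% (65.0 to 75.6). In both genes the higher allele was thus the same in each culture. As in MDH3, the log2 ratios of their lanes did not overlap between the cultures. ICL1 lanes ran from -1.68 to -1.21 in replicate 1 and from -2.24 to -1.73 in replicate 2. For ACS1 these ranges were 0.39 to 0.92 and 0.93 to 1.36. The share of all genes with such a separation was not counted. PCK1, whose total differed most, had nearly the same S. bayanus share in both, 25.8% (18.5 to 34.3) and 27.3% (6.02 to 61.0), the latter from 11 reads.

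The other genes of the pathway were read from lists of known function. The counts below stand beside 53.5% of all tested genes that differed, 26.9% toward S. cerevisiae and 26.6% toward S. bayanus, and nothing particular to a list is read from them. For isozymes, paralogs and neighbouring steps, 8 of 9 listed genes were tested and 6 differed, 5 toward S. cerevisiae and 1 toward S. bayanus, with a median log2 ratio of -0.74 against -0.00 over all tested genes. YPR006C (-2.06, SE 0.28, adjusted p = 0.00365) and YNR001C (-1.46, SE 0.14, adjusted p = 0.00141) led toward S. cerevisiae in edgeR's test. YGL062W (2.49, SE 0.16, adjusted p = 0.000571) was the one toward S. bayanus.

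For acetyl-CoA supply, the carnitine shuttle and transport, 8 of 12 listed genes were tested and 3 differed, all toward S. bayanus like ACS1, with a median log2 ratio of 0.14. The largest of these ratios were those of YOR100C, at 1.37 (SE 0.45, edgeR, adjusted p = 0.0484) and only 11 and 5 S. cerevisiae reads, and YBL015W, at 0.85 (SE 0.13, adjusted p = 0.00526). Of 11 other regulators listed, 9 were tested and 3 differed, all toward S. bayanus, a share near the 26.6% of all genes. The largest of the 3 ratios was that of YBL103C at 0.57 (SE 0.10, edgeR, adjusted p = 0.00836).

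The GID ubiquitin ligase destroys gluconeogenic enzymes when glucose returns. Of its 8 listed genes all 8 were tested and 4 differed, 3 toward S. cerevisiae and 1 toward S. bayanus, with a median log2 ratio of -0.26. YDR255C stood at -1.71 (SE 0.16, edgeR, adjusted p = 0.00144) and YCL039W at 1.35 (SE 0.26, adjusted p = 0.0100). Among the 4 tested genes that follow the glucose supply, the S. bayanus allele was higher in 2, YFR015C (1.61, SE 0.18, edgeR, adjusted p = 0.00207) and YFR053C (1.32, SE 0.29, adjusted p = 0.0142), and the S. cerevisiae allele in 1, YIL162W (-1.64, SE 0.25, adjusted p = 0.00503). Outside the 10 genes, 0 of the 37 tested list genes were at least 2-fold lower in total in replicate 2, where the share of all tested genes was 0.548%.

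The 10 genes lie on 9 chromosomes of S. cerevisiae by their systematic names, with MDH3 (YDL078C) and ADR1 (YDR216W) on opposite arms of chromosome IV. Reads could be mapped in 81.1% to 96.1% of the bases of these orthologs, least in PCK1 and most in ADR1. The orthologs differed in GC by -0.35 percentage points (PCK1) to 6.61 (ACS1), with a median of 1.93 against 1.75 over all tested genes. ICL1, CAT8 and PCK1, whose called ratios were over 2-fold, had GC differences of 0.160, 0.171 and -0.35 points. After removal of the GC trend their log2 ratios were -1.53, -1.61 and -1.42.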

How the data were processed

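For every gene the table holds raw read counts as deposited, 1 column for each lane and allele. Bowtie was used, per the submitters' processing notes. Its version, the genome builds, the annotation and any use of strand were not given in the sources used here. Genes that share reads with a paralog or an overlapping gene are therefore uncertain. Authors' natural log ratios, p-values and calls (a score of -1, 0 or 1) were taken as deposited; 4 deposited columns of sums were not used. The files name genes by systematic name only; symbols of the 10 genes come from the list that defined them, and other genes keep their systematic names.

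Lanes were summed per culture (n = 2). edgeR 4.0.16 in R 4.3.3 was run on 4 columns with TMM factors per allele column, the log of mappable length as offset and the culture as a block, since both alleles come from the same library. The culture and site tests used 16 columns with the lane as a block. Other alternatives included DESeq2 1.42.0. The allele and culture fits were tested on simulated data. Each fit recovered 64% of 50 genes changed 1.5-fold. At 2-fold the allele fit recovered 100% and the culture fit 98%. False calls numbered 9 in the allele fit (4191 genes run) and 6 in the culture fit (4193 genes run). Recovery was not split by level or read count. It therefore does not show how often a 2-fold ratio is missed in genes with few reads, such as FBP1, MLS1 and PCK1. The simulated culture shift had no spread between libraries, so it does not show how often that test calls differences between libraries. Levels and exact intervals were computed with scipy 1.17.1 and pandas 2.3.3 in Python 3.11.15. Single ratios added 0.5 reads to each count. P-values of the allele test measure the spread between 2 cultures, and those of the culture and site tests the spread between lanes. All members were named; of other lists, genes among those with the largest called ratios, and in the closing section YPL061W, chosen after its values were seen. Members and lists were chosen with earlier results of these data known. Listed genes that were not tested are not analysed here.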

Additional observations from a re-analysis of the deposited data

Results flagged for a closer look

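The allele ratio of MDH3 is listed here because the interaction test found it to differ between the cultures, by 0.56 on the log2 scale (replicate 2 minus replicate 1; edgeR, adjusted p = 3.20e-05). The ratio was higher in each of the 3 lanes of replicate 2 than in any of the 5 lanes of replicate 1. Lanes of the cultures were also apart in the ratios of ICL1 and ACS1, narrowly in ACS1, and the shifts of these genes did not pass the test. The GC difference of MDH3 is 2.12 percentage points, and its shift was 0.60 after the GC trend was removed in each lane (edgeR, adjusted p = 2.79e-08). Among 20 checks of single lanes of replicate 1, for the ratio and the total of each of the 10 genes, 0 lanes stood apart from the other 4 by Dixon's criterion at 95%.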

How the results depend on the processing

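The alternatives for the total level were picked once the data had been seen. Alleles differed in 6 of the 10 genes; the count was 5 to 6 with single lanes left out, where PCK1 could not be tested without lane 3, 4 or 7, and 5 where at least 50 reads were needed or 1 site was used. DESeq2 called 4, of which 3 toward S. cerevisiae. With no replicate block 3 were called, 2 toward S. cerevisiae, and 866 of all genes against 2246. ACS1 was called toward S. bayanus in all 18 alternatives with a test, and ICL1 and CAT8 toward S. cerevisiae in the same 18. With 1 library size for both alleles, which moves the median gene by 0.11 toward S. bayanus, 6 were called in the same directions. The ratio of MLS1 changed sign under the GC correction (-0.0718), without lane 5 (-0.0185; up to 0.20 with other lanes left out) and without replicate 2 (-0.00086, and 0.32 without replicate 1), and that of FBP1 without replicate 2 (0.0207, and -1.08 without replicate 1); neither passed the test. The shift of MDH3 between the cultures was 0.51 to 0.65 over 12 alternatives and was called in all 12, while the number over all genes went from 752 to 408 with the UCB lanes. Shifts that did not pass changed sign for ADR1 with the UCB lanes (-0.10) and with lanes left out (-0.0884 to 0.39), for CIT2 (-0.16 to 0.0703) and for PCK1 (-0.18 to 0.28). The total of PCK1 was 4.98-fold to 12.1-fold lower in replicate 2 over 11 alternatives, and that of MLS1 2.83-fold to 4.82-fold. Both upper ends come from the UCR lanes, where replicate 2 has only lane 7. That lane held 0 S. bayanus and 2 S. cerevisiae reads of PCK1, and 4 and 3 of MLS1. The cause of these changes was not tested. PCK1, MLS1 and FBP1 had 11, 29 and 44 reads in replicate 2, which limits their ratios most.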

Other observations

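CAT8 had the largest fitted ratio among the 10 genes when all lanes were used, while that of ICL1 was larger without lane 3 or lane 8 and that of PCK1 in replicate 1 alone. The genes most like CAT8 over the 16 lane and allele columns were YJR096W, YGL115W and YLR310C, with Pearson correlations from 0.949 to 0.954 on log2(RPKM + 1). Their log2 ratios of S. bayanus to S. cerevisiae were -2.86, -1.42 and -1.46. These columns share 2 libraries, so the likeness is a description of an allele difference of like direction and carries no test.

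In the list of acetyl-CoA supply genes, YPL061W had a total 2.01-fold higher in replicate 2, with a shift of its allele ratio of 0.41 toward S. bayanus (edgeR, adjusted p = 3.82e-08). In the list of isozymes, YNR001C had a total 2.18-fold higher in replicate 2, opposite to PCK1, MLS1 and FBP1. In the GID list, YCL039W shifted by 1.10 toward S. bayanus (edgeR, adjusted p = 1.11e-06). Of all tested genes, 1.07% were at least 2-fold higher in total in replicate 2, and the shift test called 17.9%. That test compares 2 libraries against the spread between lanes.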
